A study of Mus musculus with 39 samples.

Results

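The anti-apoptotic BCL-2 family was followed through 4 tissues of Prf1-/- mice, as the set of 7 genes Bcl2, Bcl2l1, Bcl2l2, Mcl1, Bcl2a1a, Bcl2a1b and Bcl2a1d. The genes were chosen by name, as the targets of ABT-737 and their closest relatives that it does not bind, with earlier results of these data known, and all 7 were found among 24537 gene rows of the table for kidney, liver and lung and among 52508 rows of the table for skin. The mice were of the C57BL/6 strain and every group lacked perforin, the pore-forming protein of cytotoxic lymphocytes, so no wild-type animal entered the comparisons. Young mice were untreated and 3 months old. Vehicle mice and ABT-737 mice were 20 months old and had been dosed from the age of 18 months on 2 days in a row each month for 2 months, with the solvent alone or with ABT-737 at 25 mg per kg. Each tissue had 3 vehicle and 3 ABT-737 libraries, with 4 young libraries in kidney, liver and lung and 3 in skin, which made 39 libraries. Vehicle mice differed from young mice in both age and solvent dosing, and the parts of these cannot be told apart. Tissues were taken after perfusion, and the 3′ ends of polyadenylated RNA were counted by a bulk form of MARS-seq. Libraries 4 and 5 of the drug group carry the treatment labels ABT-738 and ABT-739 and were placed by their titles, which read ABT.

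Anti-apoptotic BCL-2 proteins hold the pore-forming proteins BAX and BAK in check at the outer mitochondrial membrane, and BH3-only proteins release that hold by filling a groove on the anti-apoptotic partner. ABT-737 mimics a BH3 domain. It binds BCL-2 (gene Bcl2), BCL-XL (Bcl2l1) and BCL-W (Bcl2l2), while MCL-1 (Mcl1) and the A1 proteins (Bcl2a1 genes) are not bound. BCL-2 is a survival factor of lymphocytes, BCL-XL keeps platelets and maturing red cells alive, MCL-1 is a short-lived survival protein of very many cell types, and A1 is made mainly in blood cells. In mice A1 is encoded by several near-identical gene copies.

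In the build of the deposited tables, mm10, Bcl2 lies on the minus strand of chromosome 1 (106538176 to 106714290), Bcl2l1 on the minus strand of chromosome 2 (152780664 to 152830717), Bcl2l2 on the plus strand of chromosome 14 (54883425 to 54888234) and Mcl1 on the plus strand of chromosome 3 (95658721 to 95663178). The 3 Bcl2a1 copies lie on chromosome 9, Bcl2a1d on the minus strand (88723288 to 88731850) and Bcl2a1a (88956920 to 88962416) and Bcl2a1b (89199273 to 89207838) on the plus strand. The Bcl2l2 row overlaps the gene Gm20521 on the same strand, which holds 3804 counts of its own in the skin table, so part of the signal of either gene may come from the other.

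The sequences before the Bcl2a1 start sites are shown because they make visible how alike the copies are. Each line gives the 250 bases before the RefSeq start site (GRCm38.p6), 5′ to 3′ on the gene's strand, at chr9:88956670-88956919 for Bcl2a1a, chr9:89199023-89199272 for Bcl2a1b and chr9:88731851-88732100 for Bcl2a1d. The capitals mark the letters GAGGAAGT, a form of the site known to be bound by PU.1, an ETS factor of myeloid and B cells.
Bcl2a1a: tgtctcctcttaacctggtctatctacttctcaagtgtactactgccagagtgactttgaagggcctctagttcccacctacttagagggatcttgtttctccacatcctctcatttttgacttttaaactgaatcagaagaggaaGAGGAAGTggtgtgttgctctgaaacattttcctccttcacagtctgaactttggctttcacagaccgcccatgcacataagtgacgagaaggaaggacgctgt
Bcl2a1b: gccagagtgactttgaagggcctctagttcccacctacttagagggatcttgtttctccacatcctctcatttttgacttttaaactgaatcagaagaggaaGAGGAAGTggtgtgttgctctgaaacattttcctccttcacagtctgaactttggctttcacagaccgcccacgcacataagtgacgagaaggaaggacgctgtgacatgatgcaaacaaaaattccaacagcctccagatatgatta
Bcl2a1d: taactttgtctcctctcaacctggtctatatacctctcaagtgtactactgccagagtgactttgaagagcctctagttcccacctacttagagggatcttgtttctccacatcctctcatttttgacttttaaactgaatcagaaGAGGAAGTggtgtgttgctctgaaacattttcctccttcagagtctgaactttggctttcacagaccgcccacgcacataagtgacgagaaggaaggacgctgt

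The longest run shared by all 3 windows was 84 bases. It began 187 bases before the start site of Bcl2a1a, 231 bases before that of Bcl2a1b and 181 bases before that of Bcl2a1d, since the annotated start of Bcl2a1b is placed further into the shared sequence. The marked letters, searched on both strands and chosen after the windows had been read, were found once in each Bcl2a1 window, from base -104 in Bcl2a1a and Bcl2a1d and from base -148 in Bcl2a1b. They were in no window of the other 4 genes and in 2.44% of all 32851 windows of this length. The match is a description of the letters and not of binding. At the other end of the genes, where the counted reads lie, the last 300 bases of the transcripts were 97.4% to 99.3% identical between copies, so the division of reads among Bcl2a1a, Bcl2a1b and Bcl2a1d is uncertain and their sum was analysed as well.

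The depth of a library lay between 1046508 and 3842808 counts in skin, lung and kidney, and between 223957 and 891116 counts in liver. Levels are given in CPM, the count of a gene relative to the TMM-scaled size of its library, and they are not adjusted for transcript length, so they compare libraries and not genes. In every tissue the libraries carried their own tissue's markers, with a summed level of at least 9669 CPM, whereas the marker lists of the other 3 sampled tissues reached at most 518.8 CPM. Skin also held skeletal muscle markers (Ckm, Acta1 and Myh4), whose sum was 32580 to 44170 CPM in young, 4996 to 23490 CPM in vehicle and 8315 to 25270 CPM in ABT-737 skin. The young and vehicle skins were apart in that sum, none of the 3 markers passed the test, and the part of muscle in the skin values was not tested. The Prf1 row held between 0 and 169 counts per library in these Prf1-/- mice, and since the labels do not say which part of the gene is missing, 3′ counts do not check the deletion. Some libraries stood apart. Lung vehicle library 5 had a T cell marker sum of 820 CPM against 202 and 227 CPM in the other vehicle lungs, lung ABT-737 library 4 had an adipocyte marker sum of 2925 CPM against 66.3 and 46.1 CPM, and lung ABT-737 library 3 had an erythroid marker sum of 20160 CPM against 2267 and 3279 CPM. In bulk tissue, fewer cells of a type and less RNA per cell cannot be told apart.

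Markers of white blood cells moved with the groups, and the family was read beside them. Of 27 leukocyte markers, 16 of the 24 tested rose from young to vehicle in lung, 13 of 13 in kidney, 10 of 12 in skin and 7 of 7 in liver, and none fell. In ABT-737 against vehicle mice 6 of them fell in kidney and 7 in liver, and none passed in lung or skin, where 21 of 24 and 12 of 12 had a negative log2 fold change. Their part in the differences of the BCL-2 family was not tested.

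Before any treatment, the family differed between tissues of young mice, compared within the table that holds kidney, liver and lung and scaled over those 12 libraries. Mcl1 was highest in lung, at 291 CPM ± 39.9 (SD, n = 4), with 115 CPM ± 6.69 in liver and 99.6 CPM ± 10.8 in kidney. The lung level was 2.91-fold above kidney (log2 1.54 ± 0.13 SE, adjusted p = 1.77e-11, edgeR quasi-likelihood test) and 2.53-fold above liver (log2 1.34, adjusted p = 8.53e-09), while kidney and liver differed by less than their spread (log2 -0.20, 95% interval -0.53 to 0.12, adjusted p = 0.299). Tissue differences were common, with 74.7% of all genes tested passing between lung and kidney, 69.4% between lung and liver and 51.5% between kidney and liver.

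Bcl2 was near the limit of counting in young liver and present in the other tissues. Its level was 32.6 CPM ± 5.69 (SD, n = 4) in kidney, 28.2 CPM ± 3.91 in lung and 5.03 CPM ± 7.30 in liver. Kidney and lung did not differ beyond their spread (log2 lung against kidney -0.23, 95% interval -0.64 to 0.18, adjusted p = 0.298, edgeR), and both were above liver (log2 2.79 for kidney, adjusted p = 4.19e-06, and 2.56 for lung, adjusted p = 1.57e-05). Bcl2l1 stood at 168 CPM ± 43.2 in lung, 128 CPM ± 14.5 in kidney and 85.2 CPM ± 32.01 in liver, in that order, and the step from lung to liver (log2 0.95, adjusted p = 0.000205) passed under every alternative tried. The steps between neighbours, lung over kidney (log2 0.39, adjusted p = 0.0407) and kidney over liver (log2 0.56, adjusted p = 0.0257), were lost when single libraries were left out (adjusted p up to 0.2335 without lung library 3 for the first and 0.107 without liver library 4 for the second). The step of kidney over liver was also lost with DESeq2 (adjusted p = 0.1067) and with DESeq2 scaling in edgeR (adjusted p = 0.0819). Bcl2l2 had 34.8 CPM ± 5.22 in kidney, 29.1 CPM ± 2.42 in lung and 18.7 CPM ± 7.32 in liver, with kidney above liver (log2 0.90, adjusted p = 0.00474), lung above liver (log2 0.63, adjusted p = 0.0411, lost without liver library 2 or 4 or lung library 1 or 2, at 0.1386, 0.1643, 0.0613 and 0.1307), and lung not shown to differ from kidney (log2 -0.27, 95% interval -0.61 to 0.06, adjusted p = 0.135). The step of Bcl2l2 in lung over liver was also lost in edgeR with no filter on low counts (adjusted p = 0.1308). Bcl2a1 reads were almost all from lung. Bcl2a1a had 12 to 17 counts in each young lung library, 0 to 3 in each young kidney library and 0 in every young liver library.

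**Figure D1:**
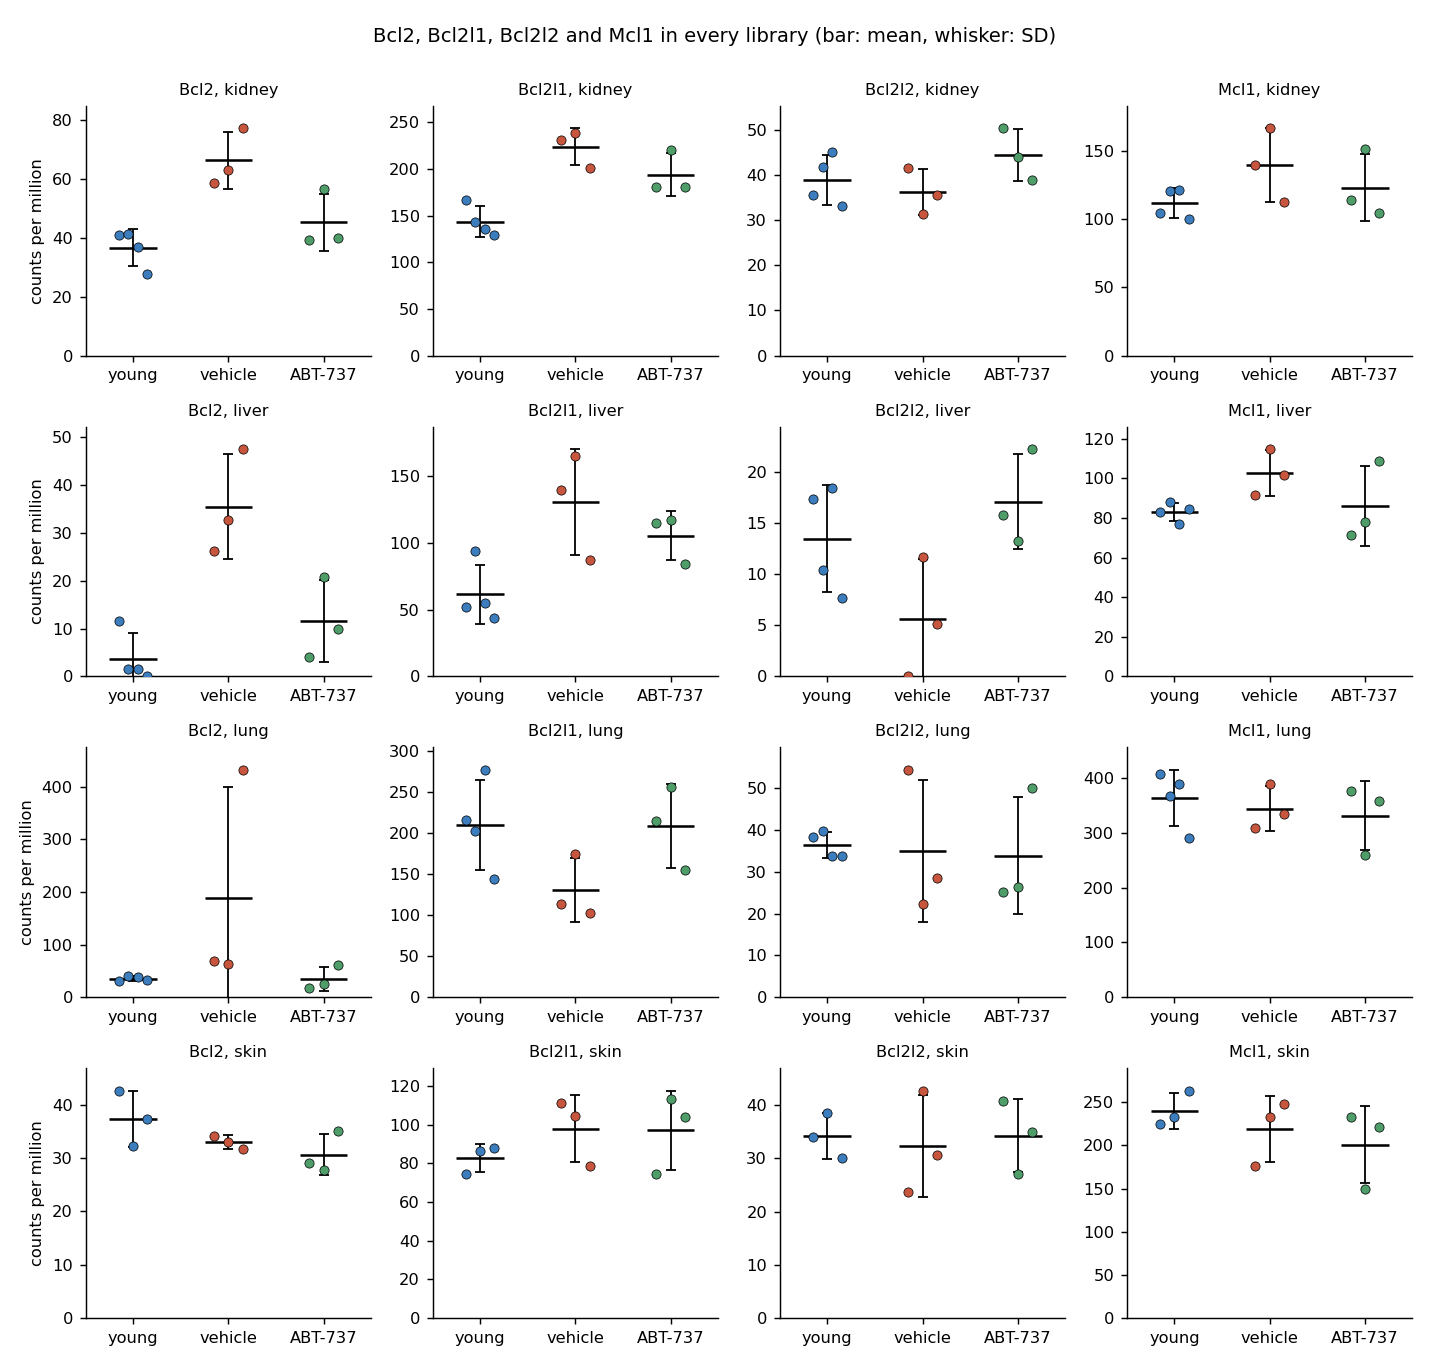
Level of Bcl2, Bcl2l1, Bcl2l2 and Mcl1 in every library, in CPM on a linear axis from 0, with 1 row per tissue and 1 point per library in the young, vehicle and ABT-737 groups. The bar is the group mean and the whisker the SD, cut at 0 where it reaches below. Bcl2 stands higher in the vehicle libraries than in both other groups in kidney, liver and lung, and in lung 1 vehicle library reaches 432 CPM.

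Bcl2, the first target of ABT-737, was higher in old vehicle mice than in young mice in 3 of the 4 tissues. In kidney the young libraries had 40.7, 41.1, 36.9 and 27.7 CPM and the vehicle libraries 58.5, 62.9 and 77.0 CPM. The groups did not overlap, as was so in this direction for 14.8% of all genes tested, and Bcl2 rose 1.80-fold (log2 0.85 ± 0.18 SE, adjusted p = 0.00568, edgeR quasi-likelihood test). In liver the young libraries had 11.6, 1.49, 1.54 and 0 CPM, which is 8 counts in all, and the vehicle libraries 26.2, 32.8 and 47.5 CPM. The groups did not overlap, as for 16% of all genes in liver, and Bcl2 rose there too (log2 3.36 ± 0.61 SE, adjusted p = 0.00104), and the size of the fold is uncertain because so few counts stand behind the young group. Bcl2 passed the filter on low counts in liver only with the vehicle libraries (6 to 37 counts). Young livers had 0 to 6 counts and ABT-737 livers 1 to 11, so the gene was tested there because its vehicle group was high. In lung the young libraries had 30.4, 40.3, 38.5 and 31.7 CPM and the vehicle libraries 68.4, 63.0 and 432 CPM. All 3 vehicle lungs were above the highest young lung, as for 15.1% of all genes in lung. The lung call (log2 2.42 ± 0.59 SE, adjusted p = 0.0167) depended on vehicle library 5, without which the log2 fold change was 0.90 and the adjusted p 0.240, and it was also lost without young library 1 (adjusted p = 0.0571) or young library 4 (adjusted p = 0.0563). In skin the young libraries had 42.7, 32.2 and 37.3 CPM and the vehicle libraries 34.3, 33.1 and 31.7 CPM, with no difference beyond their spread (log2 -0.18, 95% interval -0.59 to 0.24, adjusted p = 0.529).

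In ABT-737 mice the level of Bcl2 lay below that of vehicle mice in kidney, liver and lung, and in none of them did the difference pass the test. The ABT-737 kidneys had 39.0, 56.4 and 40.0 CPM, all below the lowest vehicle kidney (log2 -0.55, 95% interval -0.97 to -0.13, adjusted p = 0.197, edgeR). The ABT-737 livers had 3.96, 20.9 and 9.90 CPM, all below the lowest vehicle liver (log2 -1.49, 95% interval -2.69 to -0.28, adjusted p = 0.182). The ABT-737 lungs had 16.7, 25.3 and 60.8 CPM, all below the lowest vehicle lung (log2 -2.42, 95% interval -3.83 to -1.02, adjusted p = 0.129). Groups set apart in this direction were found in 8.47% of all genes tested in kidney, 9.67% in liver and 6.63% in lung. In skin the ABT-737 libraries had 29.1, 27.8 and 35.0 CPM and overlapped the vehicle libraries (log2 -0.11, 95% interval -0.51 to 0.30, adjusted p = 0.920).

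The lung was the tissue in which libraries of the same replicate number deviated together, so the comparison was also fitted with the number as a block. Vehicle and ABT-737 libraries of a number are from different mice, and the labels give no pairing of them. The block was chosen from these data, and ABT-737 library 3 deviated most like vehicle library 4 (r = 0.176 with vehicle library 3). A result of the block is therefore conditional on a pairing that is not known. In that fit Bcl2 fell by 2.11 on the log2 scale (95% interval of the log2 fold change -2.93 to -1.29, adjusted p = 0.0362), where 0.451% of all genes passed in that direction and 0.625% in either. The vehicle lung was 4.09 times the ABT-737 lung of the same number for number 3, 2.49 times for number 4 and 7.09 times for number 5. Without vehicle library 5, and without the block, the difference was log2 -0.90 (adjusted p = 0.573). Bcl2 also passed when no filter on low counts was used (adjusted p = 0.0248).

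T cell markers were set beside Bcl2, and both were highest in vehicle mice in kidney, liver and lung. The summed level of Cd3d, Cd3e, Cd3g, Cd2 and Cd5 ranged from 2.20 to 5.08 CPM in young, 18.5 to 36.9 CPM in vehicle and 4.45 to 13.5 CPM in ABT-737 kidneys. In liver the ranges were 0 to 1.92, 26.2 to 36.0 and 1.90 to 4.95 CPM, and in lung 19.5 to 39.5, 202 to 820 and 54.7 to 199.99 CPM. At 0 in every library of a group were Cd2, Cd3g and Cd5 in young liver, Cd5 in vehicle liver and Cd3e and Cd3g in ABT-737 liver, where none of these markers had enough counts for a test. The group means of Bcl2 and of the T cell sum had the same order in kidney and liver, and not in lung. Every ABT-737 lung was above every young lung for the T cell sum. Mean Bcl2 was 34.3 CPM in ABT-737 lungs and 35.2 CPM in young lungs. The lung library with the highest Bcl2 was also the one with the highest T cell sum. In skin the T cell sum was likewise higher in vehicle (18.2 to 35.3 CPM) than in young libraries (5.79 to 8.19 CPM), while Bcl2 there did not rise. All T cell markers with enough counts for a test rose from young to vehicle, 5 of 5 in lung, 3 of 3 in kidney and 2 of 2 in skin. The part of T cells in the level of Bcl2 was not tested.

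**Figure D2:**
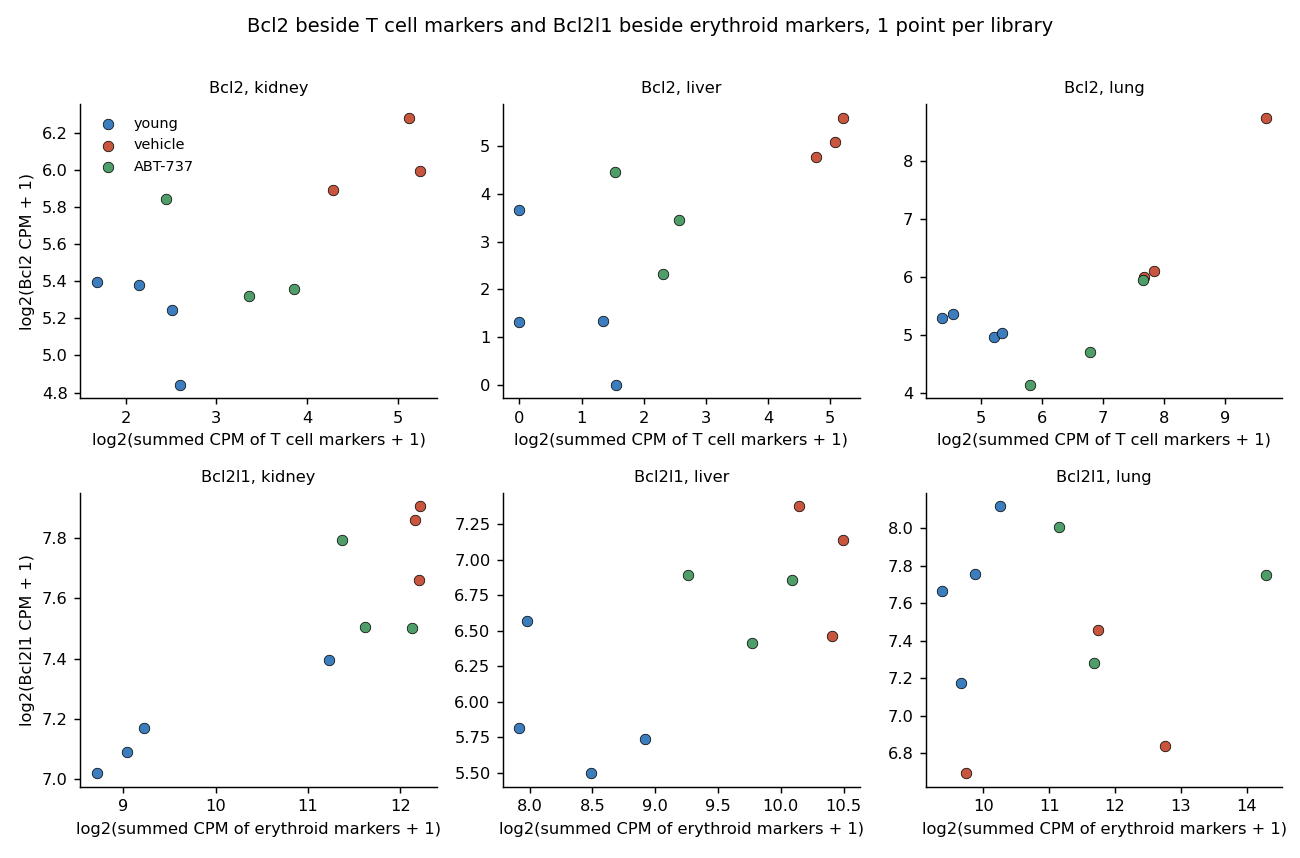
Bcl2 against the summed T cell markers (upper row) and Bcl2l1 against the summed erythroid markers (lower row) in kidney, liver and lung, both axes as log2(CPM + 1), with 1 point per library coloured by group. The vehicle libraries lie at the upper right for Bcl2 in each tissue, with lung vehicle library 5 (432 CPM of Bcl2 and 820 CPM of T cell markers) far from the rest, and for Bcl2l1 the upper right holds the vehicle libraries in kidney, whereas in lung 2 vehicle libraries are the lowest of all.

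Bcl2l1, which encodes BCL-XL, rose from young to vehicle mice in kidney and liver and did not rise in lung. In kidney the young libraries had 167, 143, 135 and 129 CPM and the vehicle libraries 231, 239 and 201 CPM. These groups did not overlap, as for 14.8% of all genes in this direction, and the rise was 1.56-fold (log2 0.64 ± 0.14 SE, adjusted p = 0.00636, edgeR quasi-likelihood test). In liver the young libraries had 52.3, 93.9, 55.3 and 44.1 CPM and the vehicle libraries 140, 165 and 87.3 CPM. One young library lay above the lowest vehicle library, and the 2.09-fold rise (log2 1.06 ± 0.29 SE, adjusted p = 0.0146) was lost without young library 1 (adjusted p = 0.0507), young library 4 (adjusted p = 0.0575) or vehicle library 4 (adjusted p = 0.0997).

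In lung the direction was the other. The young lungs had 215, 202, 277 and 143 CPM of Bcl2l1 and the vehicle lungs 113, 175 and 102 CPM, a difference that did not pass (log2 -0.68, 95% interval -1.33 to -0.04, adjusted p = 0.144). The difference between tissues was tested on its own, in a fit of all 30 libraries of the table. The change from young to vehicle was larger in kidney than in lung by 1.31 on the log2 scale (95% interval 0.61 to 2.02, adjusted p = 0.0197) and larger in liver than in lung by 1.75 (95% interval 0.99 to 2.51, adjusted p = 0.00249). Such differences were found in 8.04% of all genes tested for kidney against lung and in 11.4% for liver against lung. Without lung vehicle library 5 the first was 1.17 and no longer passed (adjusted p = 0.0763), and the second was 1.61 and passed (adjusted p = 0.00973). Kidney and liver did not differ from each other beyond their spread (-0.44, 95% interval -1.19 to 0.31, adjusted p = 0.719). For Bcl2 the change did not differ between any of these tissues at this threshold, with adjusted p-values of 0.111 for kidney against lung, 0.251 for kidney against liver and 0.590 for liver against lung, although without lung vehicle library 5 the change in liver exceeded that in lung by 2.56 (adjusted p = 0.0248). The share of all genes passing was 0.786% for kidney against liver. The difference between ABT-737 and vehicle did not differ between tissues for either gene (lowest adjusted p 0.413 for Bcl2 and 0.288 for Bcl2l1), where 0.29% of all genes passed for liver against lung, 0.0839% for kidney against liver and 0% for kidney against lung.

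Bcl2l1 did not differ between ABT-737 and vehicle mice beyond the spread in any tissue. The ABT-737 kidneys had 180, 221 and 181 CPM (log2 against vehicle -0.21, 95% interval -0.52 to 0.11, adjusted p = 0.559, edgeR) and the ABT-737 livers 115, 118 and 84.2 CPM (log2 -0.30, 95% interval -0.96 to 0.36, adjusted p = 0.712). The ABT-737 lungs had 214, 256 and 155 CPM and the difference from vehicle was log2 0.67 (95% interval -0.01 to 1.35, adjusted p = 0.316). At each replicate number the ABT-737 lung was the higher, with the vehicle level at 0.529, 0.683 and 0.662 times that of the ABT-737 lung. Libraries of a number are from different mice, and no pairing of them is known. The groups overlapped, since vehicle library 4 (175 CPM) lay above ABT-737 library 5 (155 CPM). In skin all groups overlapped, at 74.5 to 87.8 CPM in young, 78.3 to 111 CPM in vehicle and 74.2 to 113 CPM in ABT-737 mice (log2 ABT-737 against vehicle -0.01, 95% interval -0.49 to 0.47, adjusted p = 0.999).

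Red cell and platelet markers were set beside Bcl2l1, since BCL-XL is the family member those cells depend on. In kidney the erythroid sum (Hba-a1, Hbb-bt, Alas2 and Slc4a1) was 418 to 2401 CPM in young, 4565 to 4761 CPM in vehicle and 2635 to 4461 CPM in ABT-737 mice, and the platelet sum (Pf4, Ppbp, Gp9 and Itga2b) 15.2 to 28.3, 42.4 to 56.8 and 36.0 to 47.0 CPM. In liver the erythroid sum was 241 to 484, 1128 to 1444 and 613 to 1086 CPM, and the platelet sum 0 to 19.4, 39.8 to 65.5 and 20.9 to 31.7 CPM. Mean Bcl2l1 had the same order of groups in both tissues. Slc4a1 was at 0 in every young liver library, and the platelet markers had too few counts for a test in liver. In lung it was not, since the erythroid sum was 663 to 1218 CPM in young and 855 to 6916 CPM in vehicle mice and the platelet sum 63.0 to 84.2 and 71.8 to 352 CPM, while Bcl2l1 had the lower mean in vehicle mice. The ABT-737 lungs had an erythroid sum of 2267 to 20160 CPM and a platelet sum of 288 to 451 CPM, and there the means of both sums and of Bcl2l1 were above those of vehicle lungs. In skin, where Bcl2l1 did not pass, the erythroid sum was 133 to 169 CPM in young, 329 to 4434 CPM in vehicle and 103 to 254 CPM in ABT-737 mice, and the platelet sum 29.7 to 70.5, 169.6 to 293 and 46.2 to 145 CPM. The part of blood cells in the level of Bcl2l1 was not tested.

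Bcl2l2, which encodes BCL-W, the remaining target of the drug, passed in no comparison of young, vehicle and ABT-737 mice within a tissue. In kidney its level ranged from 33.2 to 45.1 CPM in young, 31.5 to 41.6 CPM in vehicle and 38.9 to 50.3 CPM in ABT-737 mice, and the log2 fold changes were -0.10 for vehicle against young (95% interval -0.46 to 0.26) and 0.28 for ABT-737 against vehicle (95% interval -0.11 to 0.67). In lung the ranges were 33.6 to 39.6, 22.3 to 54.3 and 25.1 to 50.1 CPM, and in skin 30.02 to 38.6, 23.7 to 42.7 and 27.0 to 40.7 CPM, with all groups overlapping. In liver Bcl2l2 had at most 12 counts per library and was not tested. The ABT-737 livers had 15.9, 13.3 and 22.3 CPM and the vehicle livers 0, 11.7 and 5.14 CPM, on 20 counts against 14.

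Mcl1, which the drug does not bind, passed in no comparison of young, vehicle and ABT-737 mice within a tissue. In kidney the young libraries had 100 to 121 CPM, the vehicle libraries 139, 166 and 113 CPM and the ABT-737 libraries 114, 151 and 104 CPM. In liver the young libraries had 76.8 to 87.9 CPM and the vehicle libraries 91.6, 115 and 101 CPM, which do not overlap, as for 16% of all genes in this direction, and the ABT-737 libraries had 71.3, 77.8 and 109 CPM. The lungs had 291 to 407 CPM in young, 310 to 389 CPM in vehicle and 260 to 377 CPM in ABT-737 mice, and the skin 224 to 263, 176 to 248 and 150 to 232 CPM. The log2 fold change of vehicle against young was 0.32 for liver (adjusted p = 0.296, edgeR), 0.31 for kidney (adjusted p = 0.231), -0.08 for lung (adjusted p = 0.865) and -0.13 for skin (adjusted p = 0.715). Those of ABT-737 against vehicle were -0.26 (95% interval -0.76 to 0.24), -0.18 (-0.56 to 0.20), -0.05 (-0.63 to 0.53) and -0.12 (-0.63 to 0.38) in the same order. These intervals hold changes of Mcl1 in either direction, and smaller ones were not detectable with these libraries.

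The Bcl2a1 copies, also outside the reach of ABT-737, were counted in numbers that allow a test only in lung. Bcl2a1a had 5.89, 11.8, 9.23 and 8.84 CPM in young lungs and 17.4, 30.9 and 32.9 CPM in vehicle lungs, a 3.07-fold rise (log2 1.62 ± 0.37 SE, adjusted p = 0.0128, edgeR quasi-likelihood test). Bcl2a1b had 6.38, 3.48, 2.17 and 2.08 CPM against 16.1, 12.9 and 22.4 CPM (log2 2.25 ± 0.50 SE, adjusted p = 0.0113). Bcl2a1d had 4.41, 1.39, 3.26 and 4.16 CPM against 16.1, 9.43 and 14.2 CPM (log2 1.94 ± 0.57 SE, adjusted p = 0.0399). It passed the filter on low counts only with the vehicle lungs (22 to 38 counts, against 2 to 9 in young and 1 to 23 in ABT-737 lungs). It was thus tested because its vehicle group was high. The call of Bcl2a1d was lost without any 1 of the young libraries (adjusted p 0.0779 to 0.1069). It was also lost without vehicle library 3 (adjusted p = 0.1076) or vehicle library 5 (adjusted p = 0.1424). The groups did not overlap for any copy, as for 15.1% of all genes in this direction. Because reads of these copies cannot be told apart with certainty, the sum is the firmer value.

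Summed over the 3 copies, the young lungs had 16.7, 16.7, 14.7 and 15.1 CPM, the vehicle lungs 49.6, 53.2 and 69.6 CPM and the ABT-737 lungs 12.2, 30.6 and 43.4 CPM. The sum rose from young to vehicle (log2 1.87 ± 0.34 SE, adjusted p = 0.00460, edgeR) and did not pass between ABT-737 and vehicle (log2 -0.99, 95% interval -1.77 to -0.21, adjusted p = 0.209) or between ABT-737 and young (log2 0.88, adjusted p = 0.182). The ABT-737 lungs lay below every vehicle lung for the sum and were widely spread, and 6.63% of all genes tested in lung were apart in this direction. Of the single copies, Bcl2a1b was apart in the same way, while Bcl2a1a and Bcl2a1d overlapped between ABT-737 and vehicle lungs. The single copies had log2 fold changes of -0.81, -1.34 and -0.95 against vehicle, with adjusted p-values of 0.327, 0.232 and 0.448. Without lung vehicle library 5 no copy passed between vehicle and young on its own, although the log2 fold changes were 1.46, 1.997 and 1.87 (adjusted p = 0.0669, 0.0680 and 0.142).

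Leukocyte markers of the lung were set beside Bcl2a1. The pan-leukocyte sum (Ptprc, Coro1a and Laptm5) was 461 to 570.3 CPM in young, 1017 to 3090 CPM in vehicle and 579 to 1279 CPM in ABT-737 lungs, and the macrophage sum 657.7 to 936, 969.2 to 1933 and 885.6 to 1360.0 CPM. The B cell sum was 80.7 to 134.6 CPM in young and 227.8 to 392.4 CPM in vehicle lungs, and it spread from 76.0 to 412 CPM in ABT-737 lungs. Young and vehicle lungs were apart for each of these sums, as they were for Bcl2a1 and for 15.1% of all genes in this direction. Among tested markers, 3 of 3 pan-leukocyte, 3 of 4 B cell and 2 of 5 macrophage markers rose from young to vehicle. The part of these cells in the level of Bcl2a1 was not tested.

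**Figure D3:**
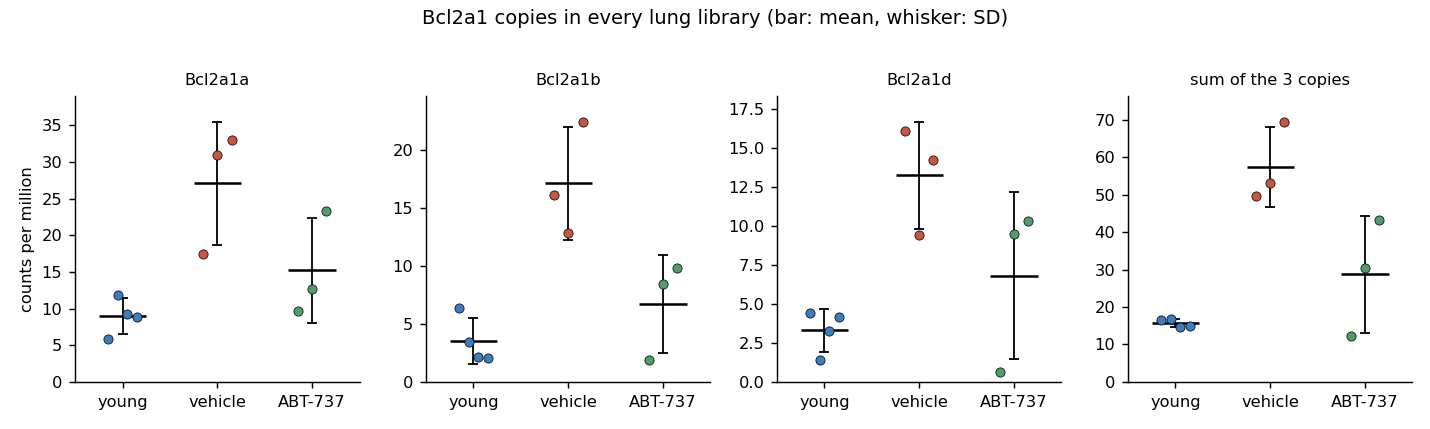
Level of Bcl2a1a, Bcl2a1b, Bcl2a1d and their sum in the 10 lung libraries, in CPM on a linear axis from 0, with 1 point per library and the group mean and SD as bar and whisker. The summed level lies between 14.7 and 16.7 CPM in young lungs and at 49.6 CPM or more in vehicle lungs, with the ABT-737 lungs spread from 12.2 to 43.4 CPM.

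Outside the lung the Bcl2a1 copies were close to the limit of counting. Their summed counts per library were 1 to 6 in young, 5 to 10 in vehicle and 2 to 3 in ABT-737 kidneys, 0 in every young and ABT-737 liver and 0 to 7 in vehicle livers, and 0 in young, 0 to 10 in vehicle and 0 to 2 in ABT-737 skin. No copy passed the filter within those tissues, and no test between young, vehicle and ABT-737 mice was made there. A level of 0 allows up to 3 counts in a library.

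Counted over the family, 4 of 7 tested genes rose from young to vehicle in lung (Bcl2 and the Bcl2a1 copies), where 8.15% of all genes rose and 12.9% passed in either direction. In kidney 2 of 4 rose (Bcl2 and Bcl2l1), against 7.75% and 13.3% of all genes, and in liver 2 of 3 (Bcl2 and Bcl2l1), against 11.7% and 22.6%. Bcl2 in liver and Bcl2a1d in lung passed the filter on low counts only with the high vehicle libraries. In skin 0 of 4 passed with edgeR or DESeq2 and 0 at an unadjusted p under 0.05, against 11.2% and 31.8% of all genes. No family gene fell. The median log2 fold change of the tested family genes was 1.62 for lung, 1.06 for liver, 0.48 for kidney and -0.10 for skin, and over all genes it lay between 0.01 and 0.05. The lung count and median take the 3 Bcl2a1 copies as separate genes, although their reads cannot be told apart with certainty. With the copies summed, 2 passed in lung (Bcl2 and the sum). The other lung genes had log2 fold changes of -0.68 (Bcl2l1), -0.08 (Mcl1) and -0.07 (Bcl2l2), so the lung median rests on the copies. In lung the count was 0 without vehicle library 5.

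Between ABT-737 and vehicle, 0 family genes passed in any of the 4 tissues with edgeR, and 0 with DESeq2, which gave no adjusted p for Bcl2 in lung, against 3.85% of all genes in liver, 1.35% in kidney and 0% in lung and skin with edgeR. At an unadjusted p under 0.05 there were 2 in lung (Bcl2 and Bcl2a1b) against 16.1% of all genes, 1 in kidney (Bcl2) against 14.8%, 1 in liver (Bcl2) against 16.1% and 0 in skin against 7.97%. The median log2 fold change of the tested family genes was -0.81 for lung, -0.30 for liver, -0.19 for kidney and -0.06 for skin, where the median over all genes lay between -0.03 and 0.04. Both comparisons use the vehicle libraries, so a high vehicle value enters each of them.

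Between ABT-737 and young mice, 0 family genes passed in any tissue with edgeR or DESeq2, against 8.4% of all genes in liver, 5.17% in skin, 2.55% in lung and 2.12% in kidney. At an unadjusted p under 0.05 there were 2 in liver (Bcl2 and Bcl2l1) against 23.9% of all genes, 1 in kidney (Bcl2l1) against 16.7%, 0 in skin against 30% and 0 in lung against 20.5%. The ABT-737 kidneys all lay above the highest young kidney for Bcl2l1, as for 8.93% of all genes (log2 0.43, 95% interval 0.14 to 0.73, adjusted p = 0.123), and Bcl2 in lung had a log2 fold change of -0.00 (95% interval -1.34 to 1.34). In liver Bcl2 differed from young by log2 1.88 and Bcl2l1 by 0.76 (adjusted p = 0.156 and 0.135). Bcl2 passed without young library 1 (log2 3.34, adjusted p = 0.0256), and Bcl2l1 passed when only those groups were fitted (log2 0.77, adjusted p = 0.0342). Without that library the young livers held 0 to 1 counts of Bcl2 each, and the ABT-737 livers 1 to 11. Bcl2 passed the filter on low counts in liver only with the vehicle libraries, which are not in this comparison.

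**Figure D4:**
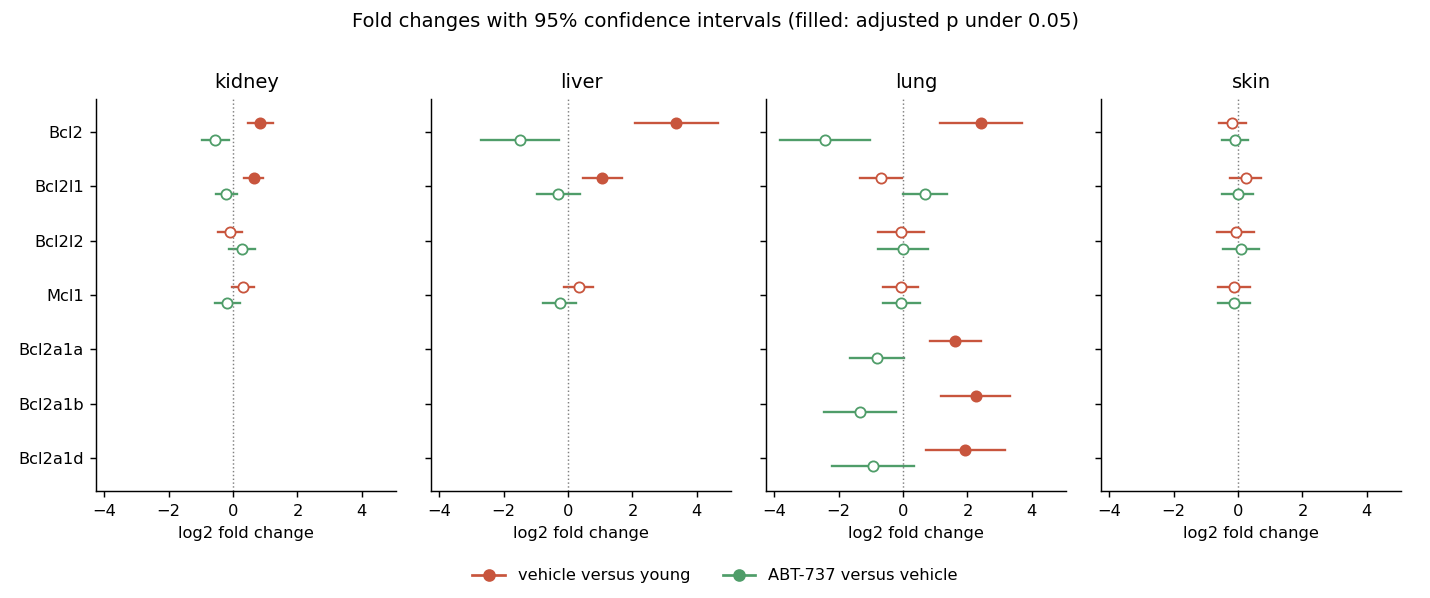
Log2 fold change of each tested gene with its 95% confidence interval in kidney, liver, lung and skin, for vehicle against young and for ABT-737 against vehicle. Filled points passed an adjusted p of 0.05. The 8 filled points are all of vehicle against young, and those of Bcl2 and Bcl2l1 in kidney are the narrowest, at 0.85 and 0.64.

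The partners and executioners of the family were read from a list of 29 other apoptosis genes. In kidney 1 of 23 tested rose from young to vehicle, where 7.75% of all genes rose. It was Bbc3, the BH3-only protein PUMA, from 3.23 to 6.00 CPM in young to 7.85, 9.58 and 9.86 CPM (log2 1.13 ± 0.29 SE, adjusted p = 0.0183, edgeR), and the ABT-737 kidneys had 4.95 to 6.23 CPM. In liver 6 of 13 passed, against 22.6% of all genes, and all 3 effectors were among them. Of these, Bok passed the filter on low counts only with the vehicle livers, so it was tested because that group was high. Bak1 rose from 6.14 to 16.4 CPM in young to 61.1, 32.8 and 34.7 CPM (log2 1.70, adjusted p = 0.00638), Bok from 4.61 to 11.9 CPM to 34.9, 37.5 and 32.1 CPM (log2 2.01, adjusted p = 0.00366) and Bax from 34.9 to 53.6 CPM to 56.7, 123 and 70.6 CPM (log2 1.004, adjusted p = 0.0378). The caspase inhibitor gene Xiap also rose in liver (log2 1.34, adjusted p = 0.0306), while Casp6, an executioner caspase, and Cycs, the cytochrome c of the apoptosome, fell by 1.43 and 1.25 on the log2 scale (adjusted p = 0.0117 and 0.0177).

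In lung, genes of the inhibitor of apoptosis family moved from young to vehicle in both directions. Birc5, the survivin gene of dividing cells, rose from 1.09 to 7.65 CPM in young to 29.5, 27.0 and 36.3 CPM (log2 2.77 ± 0.46 SE, adjusted p = 0.00316, edgeR). Birc2, a ubiquitin ligase of the inhibitor of apoptosis family, rose by 1.13 on the log2 scale (adjusted p = 0.0460). Xiap fell by 0.93 on the log2 scale in lung (adjusted p = 0.0337), from 86.2 to 106 CPM in young to 44.3, 64.3 and 46.0 CPM. In skin 1 of 24 passed, against 11.2% of all genes. It was Casp6, which rose from 6.33 to 10.9 CPM to 18.5, 20.6 and 24.0 CPM (log2 1.17, adjusted p = 0.0357) and was also above young in ABT-737 skin (log2 1.35, adjusted p = 0.0360).

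Between ABT-737 and vehicle none of the 29 genes passed in any tissue with edgeR. At an unadjusted p under 0.05 there were 3 of 25 in lung, 3 of 23 in kidney, 1 of 13 in liver and 0 of 24 in skin. Over all genes the shares were 16.1% in lung, 14.8% in kidney, 16.1% in liver and 7.97% in skin. In ABT-737 against young liver, where 8.4% of all genes passed, Bok alone of the list passed (log2 1.67, adjusted p = 0.0414), with 47.6, 30.3 and 9.90 CPM in the ABT-737 libraries. Bok passed the filter on low counts in liver only with the vehicle libraries, which are not in this comparison.

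Genes whose level followed each family gene most closely were looked up after the mean of each tissue had been subtracted. For Bcl2 these were Ehbp1l1 (Pearson r = 0.887), Tle3 (0.860) and Larp1 (0.849), over the 30 kidney, liver and lung libraries and among 5119 genes. For Bcl2l1 they were Rhod (0.731), Cdkn1a (0.729), the p21 gene of cell cycle arrest, and Lrfn3 (0.724), and for Mcl1 Fam168b (0.680), Mast2 (0.629) and Rnf25 (0.596). For Bcl2l2, over 20 kidney and lung libraries, they were Spry4 (0.828), Rbm39 (0.814) and F11r (0.786). In the 10 lung libraries Bcl2a1a followed Rhoh (0.963), Lpxn (0.961) and Ciita (0.954), Bcl2a1b followed Syngr2 (0.970), Csf2rb2 (0.959) and Hvcn1 (0.957), and Bcl2a1d followed Tspan32 (0.978), Dut (0.968) and Sdf2l1 (0.960). Libraries share their groups, so these values describe the likeness of the patterns and nothing beyond it.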

How the data were processed

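Kidney, liver, lung and skin of young, vehicle and ABT-737 Prf1-/- mice were measured by bulk MARS-seq of 3′ ends. The tables deposited by the authors hold raw counts for each gene, with 1 RefSeq transcript per gene for kidney, liver and lung and 1 Ensembl transcript per symbol for skin, whose rows run 2000 bases past the annotated 3′ end for 6 of the 7 genes. The submitters' processing notes name mm10, bcl2fastq, HISAT 0.1.5 and HOMER. Strand use and collapsing of molecule barcodes are not given in the sources used here, so counting error is a lower limit. The tables were never compared, and 0 sample columns were left unmatched.

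Tests were made with edgeR 4.0.16 under R 4.3.3: expression filter, TMM, quasi-likelihood fit of the 3 groups of a tissue, Benjamini-Hochberg adjustment over all genes tested, calls at 0.05. Tissue differences in the change used 1 fit of 30 libraries. Intervals are 95%. DESeq2 1.42.0, other scaling, filters, fits, summed copies and left-out libraries were alternatives. The method was tested on simulated data. The study counts replicates as mice. The labels do not say whether libraries of different tissues share a mouse.

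Replicate numbers come from the titles. Same-numbered vehicle and ABT-737 libraries deviated together in lung (r = 0.176, 0.296 and 0.427), which met the rule for fitting the number as a block, and not in the other tissues. Lung ABT-737 library 3 deviated most like vehicle library 4. The labels give no pairing of these mice.

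The genes and lists were chosen with earlier results of these data known. Named beside the 7 genes are other apoptosis genes that passed (at most 6 per comparison) and the 3 genes most correlated with each, from log2 CPM with a prior count of 2. One result among the other apoptosis genes is not reported here.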

Additional observations from a re-analysis of the deposited data

Results flagged for a closer look

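Bcl2 in young liver had 1 library far from the others, library 1 with 11.62 CPM (6 counts) against 0, 1.49 and 1.54 CPM. Bcl2a1b in young kidney was at 0 in 3 libraries and at 0.5512 CPM, which is 2 counts, in the other. Both were marked by the gap of 1 library to the rest of its group. Chance marks about 1 in 20 groups in this way where values are normally spread. That rate does not hold for counts this close to 0, where a single library with any counts is marked.

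The change of Bcl2l1 from young to vehicle differed between tissues by a test of the difference itself, by 1.312 on the log2 scale between kidney and lung (adjusted p = 0.0197, edgeR) and by 1.751 between liver and lung (adjusted p = 0.00249).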

How the results depend on the processing

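The counts of family genes that passed stayed within 1.5 times under most alternatives. The exceptions for vehicle against young were 0 in kidney with a replicate block, 1 in liver with a replicate block or with at least 10 counts in every library (which removes Bcl2), and 2 in lung with at least 10 counts or with the Bcl2a1 copies summed, which leaves fewer genes to count. For ABT-737 against vehicle in lung the count was 1 with no filter and 1 with the replicate block, and for ABT-737 against young in liver 1 with only the groups compared and 1 with the replicate block (Bcl2l1 in both, log2 1.25 and adjusted p = 0.00145 with the block). Leaving out 1 library gave 1 to 2 in liver and 0 to 4 in lung for vehicle against young, 0 to 1 in liver for ABT-737 against young, and 1 to 2 for young lung against kidney. Lung vehicle library 5 was left out of the tissue differences after the data had been seen, and 0 genes then passed for kidney against lung and 2 for liver against lung (Bcl2 and Bcl2l1). The block was given among the main results only in lung for ABT-737 against vehicle, where same-numbered libraries deviated together. In lung as elsewhere the libraries share only a number. For vehicle against young the block removed the kidney calls of Bcl2 (log2 0.90, adjusted p = 0.123) and Bcl2l1 (0.83, adjusted p = 0.111). It also removed the liver call of Bcl2l1 (1.63, adjusted p = 0.117) and the lung call of Bcl2 (0.92, adjusted p = 0.0810). That block rests on 2 shared numbers. Skin vehicle and young share too few numbers for a block. The causes of these shifts were not tested, and DESeq2 gave no adjusted p for Bcl2 in lung.

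Directions turned 26 times, never with a call. With at least 10 counts in every library, Bcl2l2 in lung was 0.00322 for ABT-737 against vehicle and 0.00444 for vehicle against young, and Bcl2 0.0923 for ABT-737 against young, which was 0.0281 with only the groups compared. With the replicate block, lung vehicle against young was 0.0699 for Bcl2l2 and 0.0530 for Mcl1. Leaving out 1 library in turn, lung gave -0.442 to 0.425 for Bcl2l2 and -0.152 to 0.0837 for Mcl1 in ABT-737 against vehicle, -0.511 to 0.164 for Bcl2l2 in vehicle against young and -0.772 to 0.323 for Bcl2 in ABT-737 against young. Skin gave -0.154 to 0.149 for Bcl2l1, -0.0981 to 0.321 for Bcl2l2 and -0.268 to 0.0503 for Mcl1 in ABT-737 against vehicle, and -0.336 to 0.0859 for Bcl2l2 in vehicle against young. Without lung vehicle library 5 the ABT-737 change of Bcl2 in liver minus that in lung turned to -0.649. Liver depth, at most 891116 counts per library, limits Bcl2 and Bcl2l2 there.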
